A study of Mus musculus with 18 samples.

Results

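The levels of 10 C-type lectin receptor genes of myeloid cells were compared in bone marrow-derived macrophages (BMM): Clec4b1, Clec4a1, Clec4a2, Clec4a3, Clec4d, Clec4e, Clec4n, Clec5a, Clec7a and Clec12a. The genes were picked by symbol, and Clec4b1 was included because its level was known to be lower in Nur77-deficient cells, so levels are compared between the genotypes below as a description, without a test. Only responses to a stimulus, and their difference between the genotypes, were tested. The arrays held 1 to 4 probes for each gene. The brightest probe stood for the gene and the other probes are given beside it. For 9 genes a probe passed the scanner's detection limit (p-value below 0.05) on 1 or more arrays and entered the tests, which covered 12417 genes in all. The 2 probes of Clec4a2 were detected on 0 of 18 arrays, so this gene was not tested.

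The study asked how Nur77, a nuclear orphan receptor encoded by Nr4a1, alters gene expression in resting and activated macrophages. BMM from wild-type (WT) mice and from Nur77-knockout (Nur77-KO) mice, both of strain C57BL/6, were grown from bone marrow with L929-conditioned medium, whose source cells secrete M-CSF. They were profiled unstimulated at 0 h, after 8 h with LPS (100 ng/ml) or after 8 h with IL-4 (50 ng/ml), on 3 arrays in each of the 6 groups of genotype and stimulus. LPS is a bacterial cell wall component that drives inflammatory activation, and IL-4 is a cytokine that drives alternative activation. No array was taken at 8 h without a stimulus, so 8 h of further culture is part of each response. The knockout removes Nur77 from every cell of the mouse, not from macrophages alone. Each batch of marrow came from 3 mice of each genotype and the labels do not tie an array to a mouse. The p-values therefore measure only the spread between arrays, which may be technical.

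C-type lectin receptors bind sugars, lipids or proteins on microbes and on dying cells through a carbohydrate recognition-like domain. Activating members such as Mincle, Dectin-2 and Dectin-1 signal through an ITAM-type motif, either on the adaptor FcRγ or in their own tail, to the kinase Syk and the Card9-Bcl10-Malt1 complex. Inhibitory members such as MICL carry an ITIM motif that recruits phosphatases.

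The arrays were not uniform, and this bears on every comparison of the genotypes. Detected probes per array numbered 11829 to 16283. By their root mean square distance from the other arrays of their group, 4 arrays stood apart: WT LPS replicate 3 (0.61), Nur77-KO LPS replicate 1 (0.56), WT IL-4 replicate 1 (0.65) and Nur77-KO IL-4 replicate 1 (0.63), against 0.46 or less on the others. Eif2s3y, a gene of the Y chromosome, read 8.91 to 9.68 on the log2 scale on 7 Nur77-KO arrays and 4.45 to 4.76 on the 9 WT arrays. On Nur77-KO LPS replicate 1 and Nur77-KO IL-4 replicate 1 it read 4.53 and 4.59, within the WT range. Xist, the transcript that coats the inactive X chromosome, was split in the opposite sense, at 8.93 to 9.89 on the 7 arrays and at 10.45 or more on all others. Npy read 9.88 to 10.69 on the same 7 arrays, 4.52 to 5.35 on the WT arrays and 5.72 and 4.61 on these 2. By these 3 genes the 2 arrays labelled Nur77-KO went with the WT arrays. Col1a1 did too, at 4.66 and 5.57 against 4.67 to 6.48 on the WT arrays and 8.30 to 8.88 on the 7 arrays. S100a9 did not, at 10.44 and 11.26 against 6.18 to 9.69 on the WT arrays and 9.09 to 10.04 on the 7 arrays. These values lay above both sets, and the highest WT values, 9.69 and 9.57, were on the WT arrays that stood apart. Chil3 did not go with the WT arrays either, at 9.27 with LPS and 11.96 with IL-4, above every WT array of the same stimulus. The other Nur77-KO arrays read 7.69 and 7.76 with LPS and 12.02 and 11.85 with IL-4. The labels used here give no sex for any mouse. The Nr4a1 probe was detected on 0 of 18 arrays, so the knockout label could not be checked with it on any array, these 2 included. Of 13 neutrophil markers 10 were tested, and their mean level without stimulation was 5.82 to 6.14 in WT and 7.26 to 7.33 in Nur77-KO BMM, where 9 of the 10 were detected on each array against 4 to 5 in WT. Among these Camp, Ngp and Lcn2 were detected on 0 of 3 unstimulated WT arrays and on all 3 Nur77-KO ones. Of 10 stromal markers 7 were tested, at 6.67 to 6.92 in unstimulated WT and 8.26 to 8.49 in unstimulated Nur77-KO BMM, and at 5.37 and 5.43 on the 2 Nur77-KO arrays low in Eif2s3y. The 2 WT arrays that stood apart were low too, at 5.58 (WT LPS replicate 3) and 5.16 (WT IL-4 replicate 1). Of 11 macrophage markers 9 were tested, and 7 to 9 of them were detected on each array. Their mean level without stimulation was 9.87 to 10.07 in WT and 9.81 to 9.92 in Nur77-KO BMM, with 4 of the 9 higher in Nur77-KO BMM, and single differences ran from -0.94 (Cd14, SE 0.34) to 0.43 (Mertk, SE 0.21). Adgre1 averaged 13.64 and 13.43 and Csf1r 11.94 and 11.67. In bulk RNA, fewer cells of a type and less RNA per cell cannot be told apart.

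All 10 genes lie on mouse chromosome 6. In the order of the GRCm38.p6 assembly, Clec5a stands alone. Among protein-coding genes, Clec4a1, Clec4a3, Clec4b1, Clec4a2, Clec4n, Clec4d and Clec4e then form 1 run interrupted only by Clec4a4 and Clec4b2. Clec12a follows after 101 other protein-coding genes, and Clec7a after 4 more (Clec12b, Clec1b, Clec9a and Clec1a). Promoter windows from RefSeq were found for 9 of the 10 genes, and not for Clec4n. Clec4a3 and Clec7a had 2 windows each, of which only the first was used, whereas the shares of the assembly below count every window. The 250 bases before the annotated start were searched on both strands for 6 motifs. The PU.1 core AGAGGAA, a binding motif of the main transcription factor of myeloid cells, was in the windows of 7 of the 9 genes and in 8.55% of 32851 windows of the assembly. The Nur77 monomer motif AAAGGTCA was in 0 of the 9 and in 1.34% of all windows. The STAT6 motif, TTC and GAA with 4 bases between them, was found in 3 of the 9 (Clec4a1, Clec5a and Clec7a) and in 5.85% of all. The AP-1 motif TGANTCA was found in 1 of the 9 (6.75% of all), the C/EBP motif TTGCNNAA in 2 (9.56%) and the NF-kB motif in 0 (3.90%). A match says only that these letters stand in the window, and no match only that they do not. The 150 bases before the start are shown for the gene lowest relative to WT without stimulation (Clec4b1) and for the strongest LPS response (Clec4e). Those of the gene that LPS lowered and IL-4 raised in the tests (Clec7a) and of the gene that stands alone (Clec5a) are shown too. They are written from 5′ to 3′ on the strand of the gene, with the PU.1 core of either strand in capitals.
Clec4b1, chr6:123049812-123049961, plus strand: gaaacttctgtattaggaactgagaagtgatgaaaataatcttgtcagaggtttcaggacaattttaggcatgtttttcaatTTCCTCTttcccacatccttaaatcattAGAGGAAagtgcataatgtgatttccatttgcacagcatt
Clec4e, chr6:123289872-123290021, minus strand: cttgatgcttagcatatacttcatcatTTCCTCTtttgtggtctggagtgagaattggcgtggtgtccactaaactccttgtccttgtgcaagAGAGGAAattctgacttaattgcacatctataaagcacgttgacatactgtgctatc
Clec7a, chr6:129472780-129472929, minus strand: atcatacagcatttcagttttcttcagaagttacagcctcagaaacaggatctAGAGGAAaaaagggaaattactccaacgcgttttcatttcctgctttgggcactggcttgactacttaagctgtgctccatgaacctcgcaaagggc
Clec5a, chr6:40585806-40585955, minus strand: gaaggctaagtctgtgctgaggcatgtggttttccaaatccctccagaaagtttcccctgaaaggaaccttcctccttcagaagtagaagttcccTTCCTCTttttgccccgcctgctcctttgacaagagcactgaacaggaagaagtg
Clec4b1 and Clec4e carried a pair of cores each, whose ends nearest to the start lay 34 and 62 bases and 51 and 117 bases before it, and Clec7a and Clec5a carried 1 each, 91 and 49 bases before it.

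**Figure D1:**
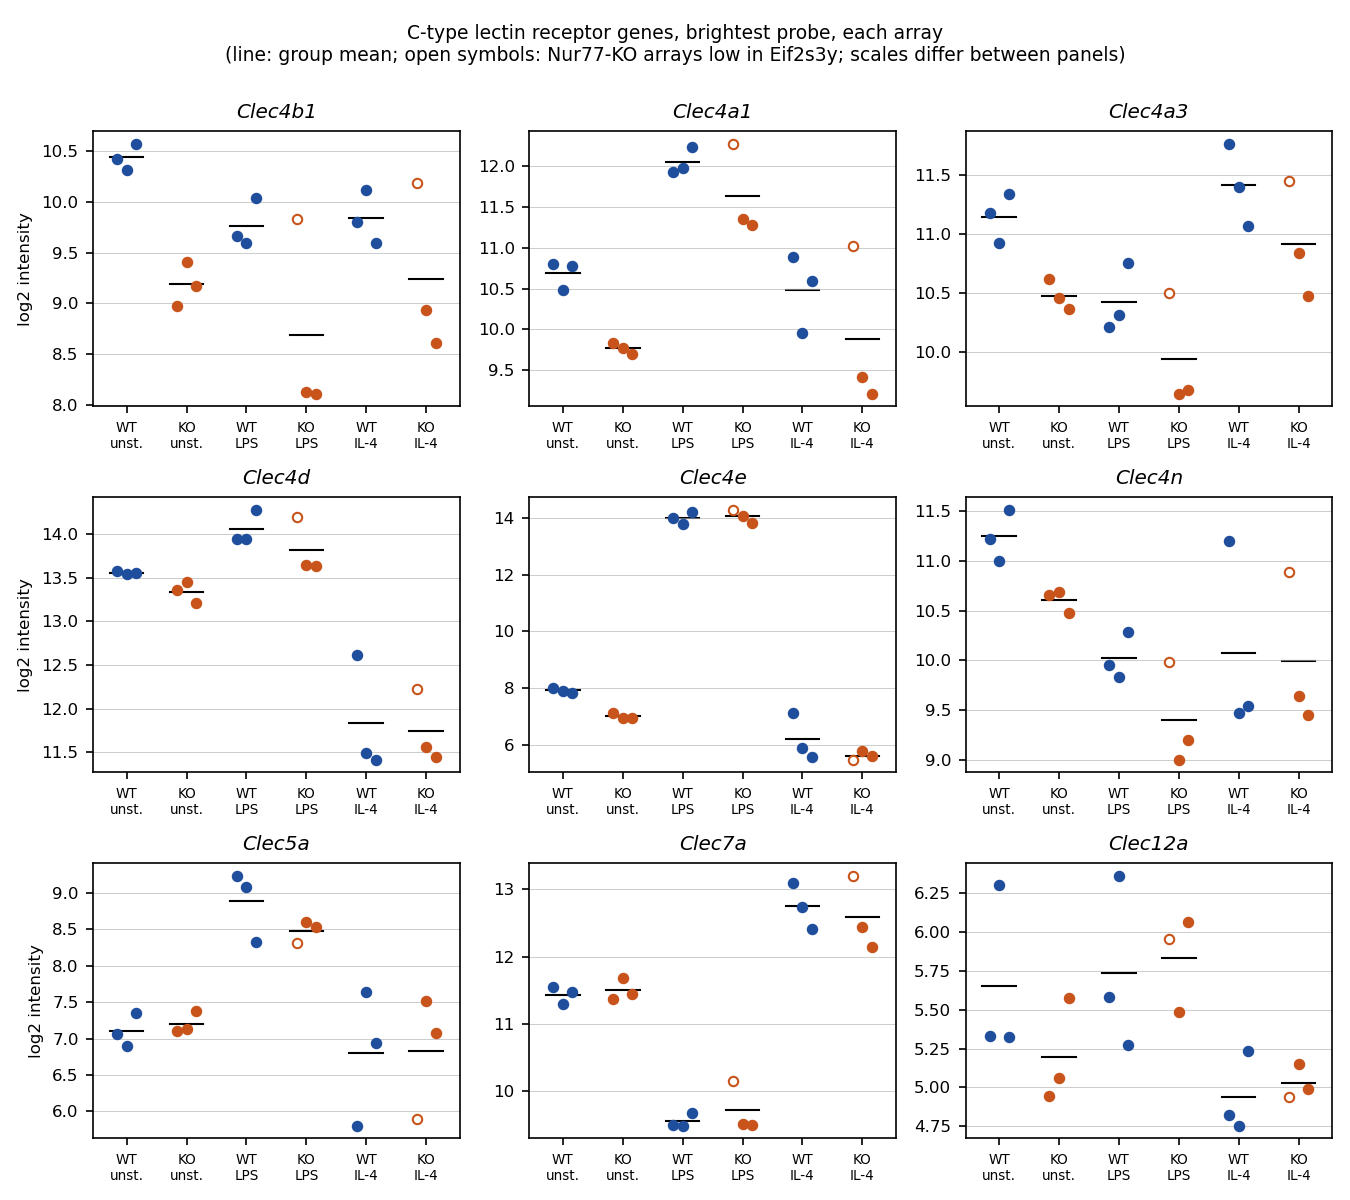
The log2 intensity (y axis, a separate scale in each panel) of the brightest probe of the 9 tested genes on each of the 18 arrays, by group (x axis; unst., unstimulated; KO, Nur77-KO), with WT in blue, Nur77-KO in orange, the group mean as a line and the 2 Nur77-KO arrays low in Eif2s3y as open symbols. Clec4e rose from 6.94 to 8.01 without stimulation to 13.79 to 14.30 with LPS, and Clec7a fell with LPS and rose with IL-4.

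LPS changed some of these receptors upward and others downward, and the downward calls were near the share of all genes. In WT BMM 6 of the 9 tested genes passed an adjusted p of 0.05 in limma against unstimulated cells (39.8% of all tested genes did): Clec4e, Clec5a and Clec4a1 rose and Clec7a, Clec4n and Clec4a3 fell. In Nur77-KO BMM 5 of 9 passed (37.8% of all): the same genes without Clec4a3. Upward calls, 3 of 9 in each genotype, stood against 15.5% and 14.1% of all genes, and downward calls, 3 and 2 of 9, against 24.3% and 23.7%. The median log2 difference of the 9 was 0.09 in WT and 0.48 in Nur77-KO BMM, beside -0.06 and -0.08 for all genes.

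IL-4 changed fewer. Clec4d and Clec4e fell and Clec7a rose in both genotypes, which makes 3 of 9 called (6.76% of all genes in WT and 5.55% in Nur77-KO BMM). Their directions, 1 up and 2 down, compare with 3.68% up and 3.08% down of all genes in WT and 3.12% and 2.42% in Nur77-KO BMM. The 9 had a median difference of -0.60 in WT and -0.17 in Nur77-KO BMM, and all genes -0.01 and 0.00. Set directly against IL-4, LPS gave 7 of 9 calls in each genotype, 5 higher and 2 lower (38.4% of all genes in WT, 36.8% in Nur77-KO BMM). Of all genes 15.1% were higher and 23.4% lower in WT, and 13.8% and 23.0% in Nur77-KO BMM. The LPS and IL-4 comparisons share their unstimulated arrays.

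**Figure D2:**
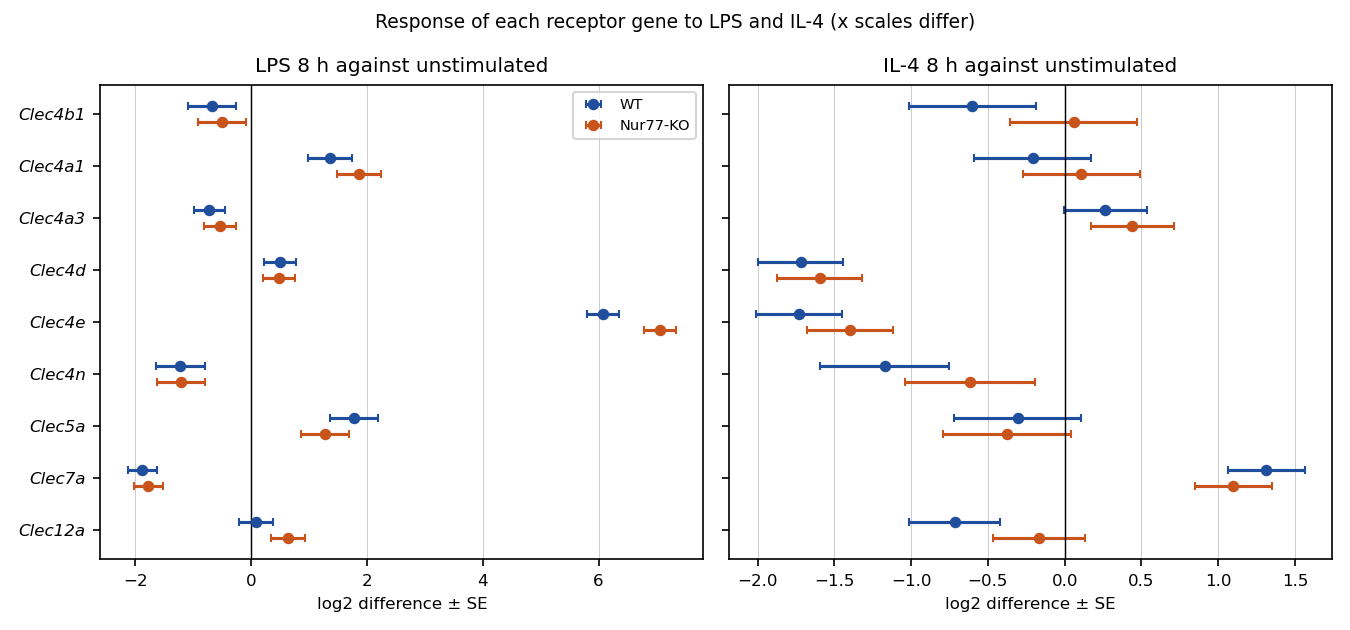
The log2 difference from unstimulated cells (x axis, with the standard error of the fit, on separate scales) after 8 h with LPS (left) and with IL-4 (right) for each tested gene (y axis), with WT in blue and Nur77-KO in orange, 3 arrays per group. The 6.08 and 7.06 of Clec4e with LPS stand beyond all others, and Clec7a is the gene below 0 with LPS and above 1 with IL-4.

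Clec4e encodes Mincle, the receptor for mycobacterial cord factor and for a nuclear protein released by dead cells. Its probe read 8.01, 7.91 and 7.83 in unstimulated WT and 7.14, 6.94 and 6.95 in unstimulated Nur77-KO BMM. With LPS the arrays read 13.99, 13.79 and 14.21 in WT and 14.30, 14.07 and 13.84 in Nur77-KO BMM. The LPS groups lay above every other group with no overlap. The log2 difference was 6.08 (SE 0.28, adjusted p = 8.01e-11, 67.7-fold higher) in WT and 7.06 (SE 0.28, adjusted p = 2.02e-11, 133-fold higher) in Nur77-KO BMM. With IL-4 the values were 7.10, 5.90 and 5.56 in WT and 5.47, 5.78 and 5.59 in Nur77-KO BMM. Clec4e thus fell with IL-4 (-1.73 in WT, SE 0.28, adjusted p = 0.00098, and -1.398 in Nur77-KO BMM, SE 0.28, adjusted p = 0.0061), with no overlap with unstimulated cells. In a fit of only the 2 WT groups compared the IL-4 difference had an adjusted p of 0.067. Within slides it was -0.90 and -1.94 in WT and -1.48 in Nur77-KO BMM. The second probe, detected on 11 of 18 arrays, rose by 7.11 and 7.38 with LPS and differed by -0.23 and -0.51 with IL-4 (SE 0.18), where it was near background. LPS against IL-4 gave 224-fold in WT and 351-fold in Nur77-KO BMM, where 2 of 3 IL-4 arrays detected the probe. The second probe gave 162-fold in WT and was detected on 0 of 3 Nur77-KO IL-4 arrays. These values carry an offset added before the logarithm, which makes the folds of dim genes too small.

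Clec4d encodes MCL, which forms a complex with Mincle and FcRγ. Without stimulation it read 13.57, 13.54 and 13.55 in WT and 13.36, 13.45 and 13.21 in Nur77-KO BMM. After LPS it read 13.95, 13.95 and 14.28 in WT and 14.20, 13.64 and 13.63 in Nur77-KO BMM. The groups did not overlap in either genotype, yet the differences of 0.50 (95% interval -0.09 to 1.09, adjusted p = 0.17) and 0.48 (-0.11 to 1.07, adjusted p = 0.19) did not pass. They did pass with median normalization (0.91 and 0.70, adjusted p = 0.013 and 0.039) and with cyclic loess normalization (0.98 and 0.90, adjusted p = 0.014 and 0.022), without the 4 arrays that stood apart (0.39 and 0.30, adjusted p = 0.0093 and 0.040) and, in WT, in a fit of only its 2 groups (adjusted p = 0.036). With IL-4 the arrays read 12.61, 11.49 and 11.41 in WT and 12.22, 11.56 and 11.45 in Nur77-KO BMM, all below unstimulated cells. Clec4d fell 3.29-fold in WT (-1.72, SE 0.28, adjusted p = 0.00097) and 3.02-fold in Nur77-KO BMM (-1.60, SE 0.28, adjusted p = 0.0020). Within slides the IL-4 difference was -0.96 and -2.07 in WT and -0.99 in Nur77-KO BMM, and the smaller values involve the 2 IL-4 arrays that stood apart. LPS exceeded IL-4 by 2.22 and 2.08 (adjusted p = 7.2e-06 and 1.59e-05).

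Clec4n encodes Dectin-2, a receptor for fungal mannans. It read 11.22, 10.996 and 11.51 in unstimulated WT and 10.66, 10.69 and 10.47 in unstimulated Nur77-KO BMM, and 9.95, 9.83 and 10.28 in WT and 9.99, 9.002 and 9.20 in Nur77-KO BMM with LPS. The LPS groups lay below the unstimulated groups without overlap in each genotype. The difference was -1.22 in WT (SE 0.42, adjusted p = 0.029) and -1.21 in Nur77-KO BMM (SE 0.42, adjusted p = 0.032). These calls were near the limit: they were lost in WT without replicate 1 or 3 of the unstimulated or replicate 1 or 2 of the LPS arrays of that genotype (-1.09 to -1.23, adjusted p = 0.063 to 0.096) and in Nur77-KO BMM without any of its 3 unstimulated arrays or LPS replicate 2 or 3 (-1.01 to -1.28, adjusted p = 0.058 to 0.12). They were also lost with cyclic loess normalization (-0.97 and -1.01, adjusted p = 0.080 and 0.063), in Nur77-KO BMM with a trended and robust prior (adjusted p = 0.051), and with the slide as a fixed block (-0.63 and -1.17, adjusted p = 0.38 and 0.089). With IL-4 the arrays were split. WT read 11.20, 9.47 and 9.54 and Nur77-KO 10.88, 9.64 and 9.45, with both high values on the arrays that stood apart. The difference from unstimulated cells was -1.17 in WT (adjusted p = 0.12) and -0.62 in Nur77-KO BMM (adjusted p = 0.56). Without WT IL-4 replicate 1 the WT value was -1.74 (adjusted p = 0.0076), and without all 4 arrays that stood apart, an alternative chosen after the values were seen, it was -1.74 in WT and -1.06 in Nur77-KO BMM (adjusted p = 1.3e-05 and 0.00075).

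Clec7a encodes Dectin-1, the receptor for fungal beta-glucan, which signals through its own tail. Its probe read 11.54, 11.29 and 11.48 in WT and 11.37, 11.68 and 11.45 in Nur77-KO BMM without stimulation. With LPS it read 9.50, 9.49 and 9.68 in WT and 10.16, 9.51 and 9.50 in Nur77-KO BMM. With IL-4 it read 13.10, 12.74 and 12.42 in WT and 13.21, 12.45 and 12.14 in Nur77-KO BMM. The 3 states were separate in both genotypes, LPS lowest and IL-4 highest, whereas the genotypes overlapped in every state. LPS lowered Clec7a 3.68-fold in WT (-1.88, SE 0.25, adjusted p = 1.35e-05) and 3.43-fold in Nur77-KO BMM (-1.78, SE 0.25, adjusted p = 2.79e-05). IL-4 raised it 2.48-fold in WT (1.31, SE 0.25, adjusted p = 0.0036) and by 1.10 on the log2 scale in Nur77-KO BMM (SE 0.25, adjusted p = 0.015). The second probe differed by -1.89 and -1.65 with LPS and by 1.54 and 1.47 with IL-4. Within slides the IL-4 difference was 1.56 and 1.26 in WT and 1.76 in Nur77-KO BMM. The IL-4 calls were lost with median normalization (1.42 and 1.00, adjusted p = 0.052 and 0.20), and that of Nur77-KO BMM also in a fit of only its 2 groups (adjusted p = 0.072) and without its unstimulated replicate 1 or 3 or IL-4 replicate 1 (0.79 to 1.07, adjusted p = 0.060 to 0.070). Between LPS and IL-4 Clec7a differed 9.15-fold in WT (adjusted p = 3.81e-08) and 7.33-fold in Nur77-KO BMM (adjusted p = 1.43e-07).

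Clec5a encodes MDL-1, which pairs with the adaptor DAP12. Its brightest probe read 7.06, 6.89 and 7.35 in WT and 7.11, 7.13 and 7.38 in Nur77-KO BMM without stimulation, and 9.24, 9.08 and 8.33 in WT and 8.31, 8.60 and 8.53 in Nur77-KO BMM with LPS. The LPS arrays were all above the unstimulated ones. Clec5a rose by 1.78 (SE 0.42, adjusted p = 0.0024, 3.44-fold) in WT and by 1.28 (SE 0.42, adjusted p = 0.023, 2.42-fold) in Nur77-KO BMM. The other 3 probes rose by 1.23 to 2.16 in WT and by 1.02 to 1.76 in Nur77-KO BMM. Both calls were lost with median normalization (1.46 and 0.60, adjusted p = 0.12 and 0.54) and with the slide as a fixed block (1.30 and 1.31, adjusted p = 0.10 and 0.094), and that of Nur77-KO BMM without its unstimulated replicate 1 or 2 or LPS replicate 2 or 3 (1.22 to 1.25, adjusted p = 0.057 to 0.065). With median normalization the median LPS difference of all genes was -0.13 in WT and -0.34 in Nur77-KO BMM. Relative to that shift Clec5a differed by 1.60 and 0.94. With IL-4 the arrays read 5.80, 7.65 and 6.94 in WT and 5.90, 7.52 and 7.08 in Nur77-KO BMM and overlapped with unstimulated cells. The lowest value of each genotype was on the IL-4 array that stood apart. The IL-4 differences were -0.31 (95% interval -1.19 to 0.58) and -0.37 (-1.26 to 0.51). LPS exceeded IL-4 4.25-fold in WT and 3.14-fold in Nur77-KO BMM (adjusted p = 0.00068 and 0.0047), calls that median normalization also removed (1.76 and 1.33, adjusted p = 0.061 and 0.17).

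Clec4a1 belongs to the DCIR family of the same cluster. Its probe read 10.80, 10.48 and 10.78 in WT and 9.84, 9.77 and 9.70 in Nur77-KO BMM without stimulation, and 11.93, 11.98 and 12.24 in WT and 12.28, 11.35 and 11.28 in Nur77-KO BMM with LPS. LPS raised it above every unstimulated array of the same genotype. The increase was 1.36 (SE 0.38, adjusted p = 0.0086, 2.57-fold) in WT and 1.87 (SE 0.38, adjusted p = 0.00091, 3.65-fold) in Nur77-KO BMM. With IL-4 the values, 10.88, 9.96 and 10.59 in WT and 11.02, 9.41 and 9.21 in Nur77-KO BMM, overlapped with unstimulated cells, and the differences were -0.21 (95% interval -1.02 to 0.60) and 0.11 (-0.70 to 0.92). LPS exceeded IL-4 2.97-fold in WT and 3.38-fold in Nur77-KO BMM (adjusted p = 0.0033 and 0.0015).

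Clec4a3, another DCIR family gene next to Clec4a1, moved the other way with LPS. It read 11.18, 10.93 and 11.34 in WT and 10.62, 10.46 and 10.36 in Nur77-KO BMM without stimulation, and 10.22, 10.31 and 10.76 in WT and 10.50, 9.65 and 9.68 in Nur77-KO BMM with LPS. The WT groups did not overlap and the Nur77-KO groups did, through Nur77-KO LPS replicate 1. The difference was -0.72 in WT (SE 0.27, adjusted p = 0.043) and -0.54 in Nur77-KO BMM (SE 0.27, adjusted p = 0.14). The WT call held in 17 of 32 alternatives and was lost without any 1 of 9 arrays (unstimulated WT 1 and 3, unstimulated Nur77-KO 1, 2 and 3, WT LPS 1 and 2, WT IL-4 2 or Nur77-KO IL-4 2, at -0.62 to -0.72 and adjusted p = 0.052 to 0.14). In Nur77-KO BMM the difference without LPS replicate 1 was -0.82 (adjusted p = 0.026). With IL-4 Clec4a3 read 11.77, 11.41 and 11.07 in WT and 11.45, 10.84 and 10.48 in Nur77-KO BMM, 0.27 (95% interval -0.31 to 0.84) and 0.44 (-0.13 to 1.02) above unstimulated cells. LPS against IL-4 gave -0.99 in WT (adjusted p = 0.0078) and -0.98 in Nur77-KO BMM (adjusted p = 0.0088), the latter lost without Nur77-KO IL-4 replicate 1 (-0.72, adjusted p = 0.052), in a fit of only its 2 groups (adjusted p = 0.060) and with the mean of the detected probes (-0.87, adjusted p = 0.10). The WT call was lost with the slide as a fixed block (-0.57, adjusted p = 0.16) and with median normalization (adjusted p = 0.057). The second probe, detected on 12 of 18 arrays, differed by -1.07 and -0.72 with LPS (SE 0.60).

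The ITIM-bearing receptors were at the lower end of detection. Clec12a encodes MICL, an inhibitory receptor for uric acid crystals, and its probe was detected on 5 of 18 arrays. It read 5.33, 6.30 and 5.33 in WT and 4.95, 5.06 and 5.57 in Nur77-KO BMM without stimulation, 5.58, 6.36 and 5.27 in WT and 5.95, 5.49 and 6.06 in Nur77-KO BMM with LPS, and 4.75 to 5.24 in WT and 4.94 to 5.15 in Nur77-KO BMM with IL-4, where it was detected on 0 of 6 arrays. With LPS it was detected on 1 of 3 arrays in WT and 2 of 3 in Nur77-KO BMM, so no fold is given. The fitted differences of 0.80 and 0.81 between LPS and IL-4 had adjusted p = 0.043 and 0.044, and neither was stable. In WT the call was lost without any 1 of 7 arrays (WT LPS 1 or 2, WT IL-4 1 or 2, unstimulated Nur77-KO 2, Nur77-KO IL-4 2 or 3, at 0.49 to 0.88), and in Nur77-KO BMM without any 1 of another 7 (Nur77-KO LPS 1 or 3, Nur77-KO IL-4 1, 2 or 3, unstimulated Nur77-KO 2, WT LPS 1, at 0.69 to 0.87). Both were also lost with median (0.70 and 0.61) or cyclic loess normalization (0.69 and 0.65), without the detection filter and with the slide as a fixed block (0.53 and 0.85). Clec4a2, the DCIR gene with an ITIM, was not detected on any array, which sets no level for it.

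The size of these responses was also compared between the genotypes. Of the 9 tested genes 0 differed by an adjusted p of 0.05 in limma in their LPS response (0.0161% of all genes did) or in their IL-4 response (0.00805%), and 1 and 0 did at an unadjusted p of 0.05 (4.52% and 2.00% of all genes). The one was Clec4e, whose LPS response was 0.98 larger in Nur77-KO BMM (SE 0.39, 95% interval 0.14 to 1.82, adjusted p = 1.00), from a lower unstimulated level and a like level with LPS. For the other genes the intervals of the difference in LPS response reached from -1.75 (Clec5a) to 1.64 (Clec4a1). The second Clec4e probe differed less, by 0.27 (SE 0.26).

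Clec4b1 encodes DCAR, which pairs with FcRγ and recognises mycobacterial glycolipids. Its brightest probe read 10.42, 10.32 and 10.58 in unstimulated WT and 8.97, 9.41 and 9.17 in unstimulated Nur77-KO BMM. With LPS it read 9.66, 9.59 and 10.04 in WT and 9.83, 8.13 and 8.11 in Nur77-KO BMM, and with IL-4 9.80, 10.12 and 9.60 in WT and 10.19, 8.93 and 8.61 in Nur77-KO BMM. Without stimulation every Nur77-KO array was below every WT array. With a stimulus the genotypes overlapped through replicate 1 of each Nur77-KO group, the 2 arrays low in Eif2s3y, which lay within or just above the WT range. The mean difference from WT was -1.25 in the resting state, -1.08 after LPS and -0.60 after IL-4 (SE 0.41 each). With the slide as a fixed block the IL-4 difference was -0.23. Without those 2 arrays, an alternative chosen after the values were seen, the differences were -1.25 (SE 0.18), -1.65 (SE 0.20) and -1.07 (SE 0.20).

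The second Clec4b1 probe separated the genotypes in each state, on those 2 arrays as well. It read 9.07, 8.87 and 8.97 in WT and 7.51, 7.42 and 7.33 in Nur77-KO BMM without stimulation, 7.34, 7.21 and 6.76 in WT and 6.64, 5.59 and 6.20 in Nur77-KO BMM with LPS, and 7.48, 8.50 and 8.17 in WT and 7.14, 6.74 and 6.91 in Nur77-KO BMM with IL-4. No Nur77-KO array reached the lowest WT array of its state. The differences from WT were -1.55, -0.96 and -1.12 in these states, in that order (SE 0.26 each), and -1.55, -1.21 and -1.22 over the arrays other than those 2. The 2 probes of Clec4b1 therefore disagreed on the 2 arrays low in Eif2s3y, within or just above the WT range by the first and below it by the second. The remaining probe was detected on 2 arrays, both unstimulated WT. Within slides the brightest probe differed by -1.35 and -1.403 without stimulation, by -1.93 with LPS and by 0.07 and -0.99 with IL-4, where the 0.07 involves Nur77-KO IL-4 replicate 1. In unstimulated cells all 3 Nur77-KO arrays carried Eif2s3y and 0 of 3 WT arrays did, so the genotype and what that gene marks cannot be told apart there. The part of the neutrophil and stromal markers in these differences was not tested. On the 2 arrays low in Eif2s3y the neutrophil markers averaged 8.48 and 8.59, above the 5.82 to 8.20 of all WT arrays. They were also above the 7.18 to 7.72 of the other Nur77-KO arrays.

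**Figure D3:**
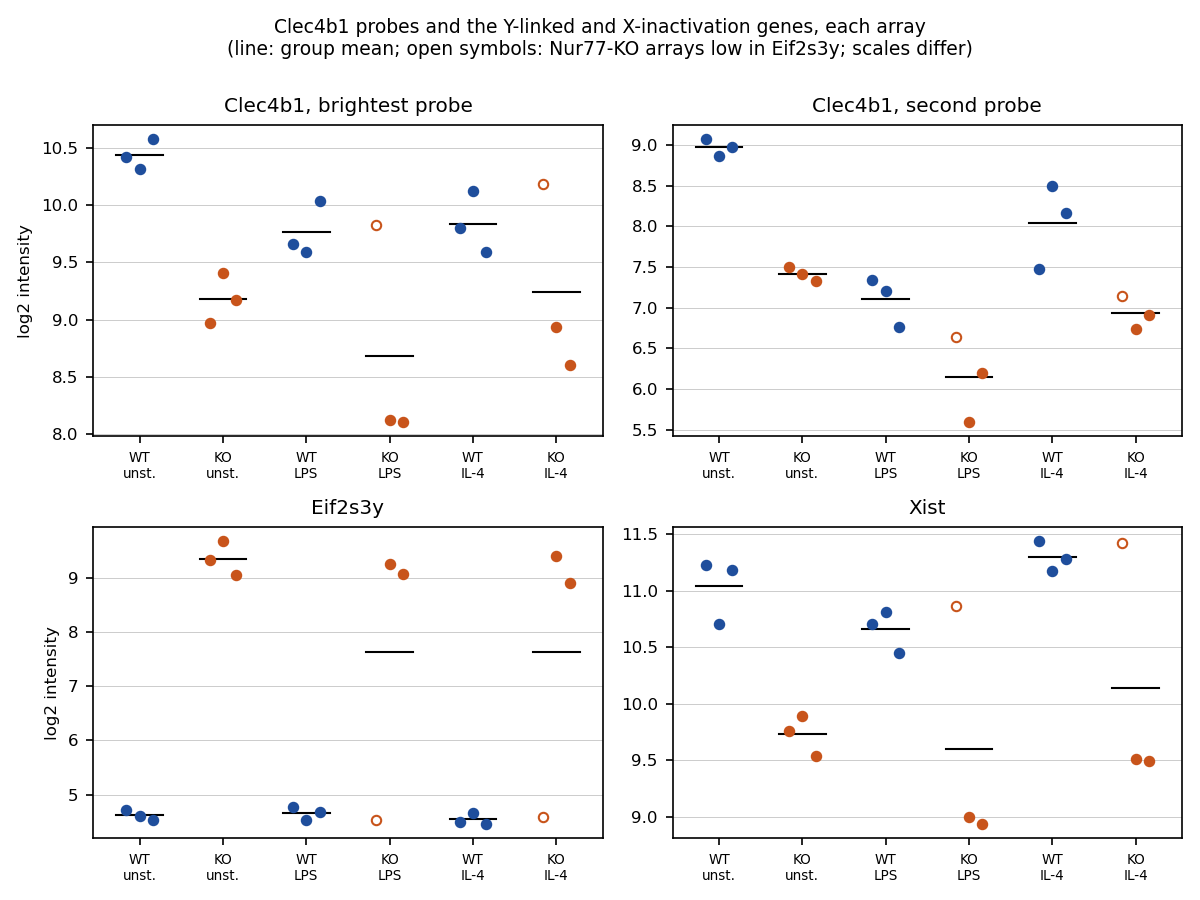
The log2 intensity (y axis, separate scales) of both well detected Clec4b1 probes (top) and of Eif2s3y and Xist (bottom) on each array, by group (x axis; unst., unstimulated; KO, Nur77-KO), with WT in blue, Nur77-KO in orange, the group mean as a line and the 2 Nur77-KO arrays low in Eif2s3y as open symbols. On these 2 arrays the first probe read 9.83, within the WT range, and 10.19, just above it, and the second 6.64 and 7.14, below the WT range.

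The response of Clec4b1 to LPS did not pass by its brightest probe. The difference was -0.68 in WT (SE 0.41, 95% interval -1.55 to 0.20, adjusted p = 0.217) and -0.50 in Nur77-KO BMM (SE 0.41, 95% interval -1.37 to 0.37, adjusted p = 0.384), with 4 of 32 alternatives past the threshold in each genotype. Among these was the mean of the detected probes (-1.26 and -0.69, adjusted p = 0.00028 and 0.024). By the second probe, which was not tested on its own, the difference was -1.87 and -1.27 (SE 0.26). With IL-4 the brightest probe differed by -0.60 and 0.06 and the second by -0.92 and -0.49. In WT BMM the LPS arrays of either probe were all below the unstimulated ones. In Nur77-KO BMM the brightest probe overlapped through LPS replicate 1, without which its difference was -1.07 (adjusted p = 0.023).

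The other receptors of the cluster were mostly lower in unstimulated Nur77-KO BMM too. Besides Clec4b1, the genotypes did not overlap for Clec4a1 (-0.92, SE 0.38), Clec4e (-0.91, SE 0.28), Clec4a3 (-0.67, SE 0.27), Clec4n (-0.64, SE 0.42) and Clec4d (-0.22, SE 0.28). That makes 6 of 9 genes without overlap, all lower, where 19.0% of all genes did not overlap and 7.94% were lower without overlap. Clec4b1 is among the 6, and it was included because it was known to be lower, so its part in this count was set beforehand. Clec5a (0.10), Clec7a (0.06) and Clec12a (-0.46) overlapped, and these 3 lie outside that run of genes. With LPS and with IL-4, 0 of 9 genes were free of overlap (12.0% and 7.67% of all genes were). With median normalization the differences of Clec4b1, Clec4a1, Clec4e, Clec4a3, Clec4n and Clec4d were smaller, at -0.70, -0.38, -0.35, -0.20, -0.17 and -0.05. The median of all genes was then 0.34, and relative to that shift Clec4b1 differed by -1.04, Clec4a1 by -0.72, Clec4e by -0.69, Clec4a3 by -0.54, Clec4n by -0.51 and Clec4d by -0.39. With the slide as a fixed block the difference of Clec4d was 0.00.

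The 2 Nur77-KO arrays low in Eif2s3y were high for several of these genes. Clec4a1 read 12.28 with LPS and 11.02 with IL-4 on them, above every WT array of the state. Clec4a3 and Clec4n were at 11.45 and 10.88 with IL-4, within the WT range, and at 10.50 and 9.99 with LPS, again within it. The 2 WT arrays that stood apart were also the highest of their groups for these genes. WT LPS replicate 3 read 12.24, 10.76 and 10.28 for Clec4a1, Clec4a3 and Clec4n, and WT IL-4 replicate 1 read 10.88, 11.77 and 11.20. Both WT arrays were kept when the 2 Nur77-KO arrays were left out. The genotype difference of Clec4a1 then went from -0.41 to -0.73 with LPS and from -0.60 to -1.17 with IL-4. That of Clec4a3 went from -0.49 to -0.76 with LPS and from -0.49 to -0.76 with IL-4, and that of Clec4n from -0.62 to -0.92 and from -0.08 to -0.53. Without WT IL-4 replicate 1 instead, which also stood apart, the IL-4 difference of Clec4n was 0.48 and that of Clec4d went from -0.09 to 0.29. For Clec4e the genotype difference was 0.07 and, without the 2 Nur77-KO arrays, -0.04 with LPS and -0.57 and -0.50 with IL-4. Clec7a with IL-4 went from -0.15 to -0.46 and Clec5a with IL-4 from 0.03 to 0.50. On the remaining arrays 5 of 9 genes did not overlap between the genotypes with LPS, all lower (30.9% of all genes did not overlap, 13.9% lower), and 3 of 9 with IL-4, all lower (23.3% and 10.2%). The 3 were Clec4b1, Clec4a1 and Clec4a3, and Clec4d and Clec4n joined them with LPS. Both counts hold Clec4b1, which was included because it was known to be lower.

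**Figure D4:**
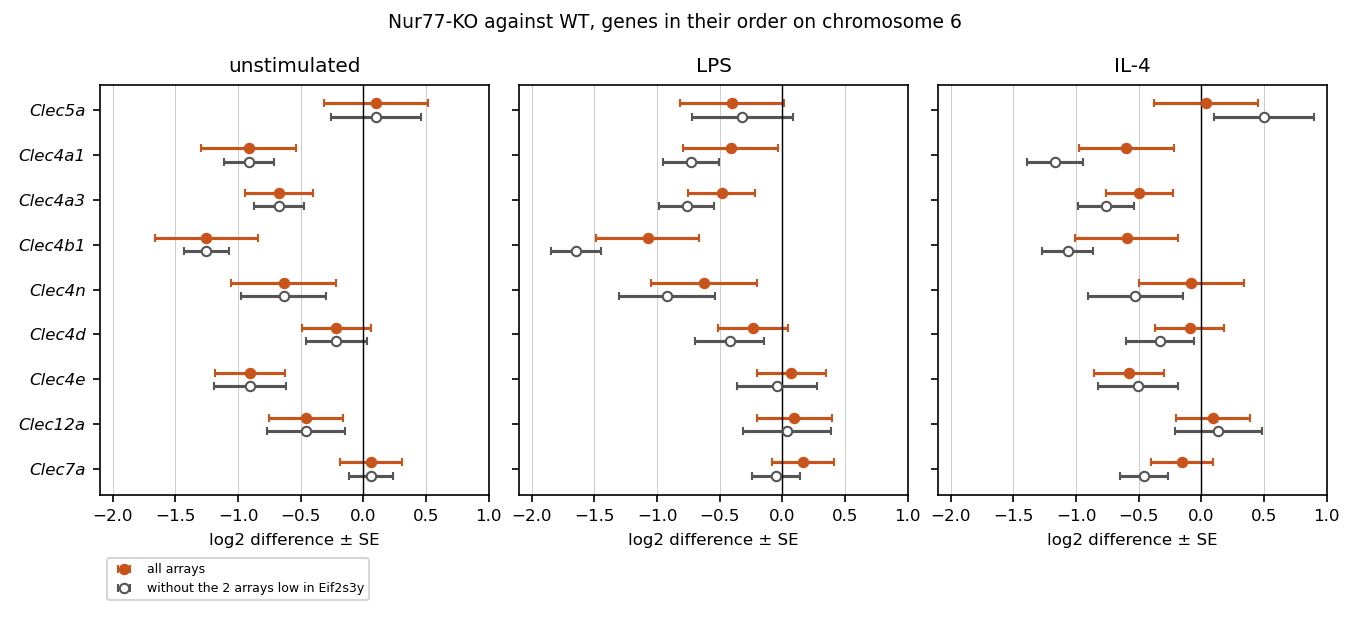
The log2 difference of Nur77-KO from WT (x axis, with the standard error of the fit) for the 9 tested genes in their order on chromosome 6 (y axis), in each state, over all arrays (filled) and without the 2 Nur77-KO arrays low in Eif2s3y (open). Without stimulation the run from Clec4a1 to Clec4e lies between -0.22 and -1.25. Outside that run Clec5a and Clec7a lie near 0 and the dim Clec12a at -0.46.

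The adaptors and kinases through which these receptors signal were measured as a list of 22 genes, 18 of them tested. With LPS 14 changed in WT, 10 higher and 4 lower, and 13 in Nur77-KO BMM, 10 higher and 3 lower, and the median difference was 0.36 and 0.40, where 39.8% of all genes changed in WT (15.5% higher) and 37.8% in Nur77-KO BMM (14.1% higher). Malt1, the protease of the Card9-Bcl10-Malt1 complex, rose by 4.07 in WT and 3.92 in Nur77-KO BMM (adjusted p = 6.5e-11 and 1.0e-10). Src, a kinase that phosphorylates ITAM motifs, rose by 3.40 and 2.79 (adjusted p = 6.7e-07 and 6.6e-06). Inpp5d, the inositol phosphatase SHIP1 recruited by ITIM receptors, fell (-2.40 and -2.95, adjusted p = 2.8e-05 and 3.5e-06), and the transcription factor Nfatc1 fell (-2.01 and -1.98, adjusted p = 1.5e-06 and 1.9e-06). With IL-4 4 rose in WT and 2 in Nur77-KO BMM and 0 fell (3.68% and 3.12% of all genes rose), and the median difference was -0.12 and -0.13. Prkcd, the kinase between Syk and Card9, rose by 1.14 and 0.92 (adjusted p = 1.86e-05 and 0.00017), and Traf6, an adaptor ligase, by 0.67 and 0.70 (adjusted p = 0.0125 and 0.0105). Src rose by 1.68 in WT (adjusted p = 0.0062) and Malt1 by 0.87 (adjusted p = 0.0075). Their values in Nur77-KO BMM were 0.54 and 0.46 (adjusted p = 0.515 and 0.20). The difference between the genotypes in these responses was -1.13 for Src and -0.41 for Malt1 (SE 0.48 and 0.26), and neither passed (adjusted p = 1.00 each).

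Of 41 other C-type lectin genes, 24 were tested. With LPS 8 changed in WT, 3 higher and 5 lower, and 9 in Nur77-KO BMM, 4 higher and 5 lower, with medians of -0.01 and -0.04. These counts are near the 39.8% and 37.8% of all genes. Cd69, an early activation antigen, rose by 7.85 and 8.61 (adjusted p = 2.5e-12 and 9.8e-13), and Klra2, a Ly49 family receptor, by 2.68 and 1.68 (adjusted p = 8.1e-05 and 0.0046). Cd93 fell (-1.89 and -2.16, adjusted p = 3.9e-08 and 9.7e-09) and Clec10a, the galactose-type lectin MGL1, did too (-2.11 and -1.93, adjusted p = 0.0022 and 0.0047). With IL-4 6 changed in WT and 5 in Nur77-KO BMM, 3 of them higher in each (6.76% and 5.55% of all genes changed). Mgl2, the paralog of Clec10a, rose by 3.23 and 3.27 (adjusted p = 0.0015 in each) and Clec10a by 2.50 and 1.92 (adjusted p = 0.0044 and 0.028). The mannose receptor Mrc1 rose by 1.85 and 1.83 (adjusted p = 0.00028 and 0.00033), and thrombomodulin, Thbd, fell (-1.66 and -1.37, adjusted p = 0.0028 and 0.013). Probes for the near-identical pair Clec10a and Mgl2 may cross-hybridize, which was not tested.

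Of 17 genes that Syk-Card9 signalling is known to switch on, 16 were tested. LPS, which acts on the same genes through its own receptor Tlr4, raised 12 and lowered 2 in WT and raised 13 and lowered 2 in Nur77-KO BMM, with median differences of 4.07 and 3.59. Of all genes 15.5% and 14.1% rose. Il1b rose by 9.29 and 9.86 (adjusted p = 4.2e-11 and 2.0e-11), Cxcl2 by 7.93 and 8.64 (adjusted p = 1.6e-08 and 7.4e-09), Tnf by 6.82 and 7.62 (adjusted p = 2.2e-11 and 7.6e-12) and Cxcl1 by 7.07 and 6.57 (adjusted p = 1.0e-08 and 2.7e-08). These encode inflammatory cytokines and neutrophil-attracting chemokines. With IL-4 1 gene changed in each genotype (6.76% and 5.55% of all genes did), Egr2, a transcription factor of alternative activation, which rose by 2.93 and 3.15 (adjusted p = 6.8e-06 and 4.0e-06). No receptor ligand was added in this study.

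Across the 18 arrays the genes most like each receptor were named by Pearson correlation of their log2 values, as a description without a test, since the arrays fall into 3 stimulus states that all genes share. Clec4e was closest to the scavenger receptor gene Msr1 (r = 0.99), then Snx20 and Rab32. Clec7a was closest to Triap1 (0.99), then Kcnk6 and Matk, and Clec5a to Hmgn3 (0.97), then Mtpn and Ubtd2. Clec4d followed Tlr2 (0.96), Nlrc4 and Dram2, and Clec4a1 followed Notch1 (0.95), Zfp263 and Cfap74. For Clec4a3 the list was H2-Ke6 (0.90), Fcgrt and Csf1r, for Clec4n Mgst2 (0.90), Kbtbd7 and Abca9, and for the dim Clec12a Lnpk (0.90), Pde1b and Iigp1. For Clec4b1, by its brightest probe only, the list was Xist (0.89), Arhgap4 (0.87) and Sbf1 (0.85). Clec4b1 was included because it was known to be lower in Nur77-KO cells, and Xist was low on 7 Nur77-KO arrays. The correlation with Xist is therefore not independent of that choice. Among the receptors themselves, Clec4e ran opposite to Clec7a (-0.94) and along with Clec4a1 (0.84) and Clec5a (0.83), and Clec4b1 was nearest to Clec4a3 (0.76) and Clec4n (0.71).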

How the data were processed

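RNA of 18 BMM samples was hybridized to Illumina MouseWG-6 v2 arrays on 6 slides. For each probe the deposited files give an intensity and, beside it, a detection p-value, both from GenomeStudio 2011.1. The values used here are the log2 values the authors deposited: the background was corrected by normexp with the negative controls, arrays were quantile normalized and logs were taken (limma 3.10.2, R 2.14.0). They differed by at most 0.0588 from values recomputed from the intensities with an offset of 16. Genes were named through the platform annotation: of 45281 probes, 34885 carry 1 symbol, 18 several and 10378 are not listed. A probe was kept if it had 1 symbol and passed the detection limit (p-value below 0.05) on any array, and the brightest one stood for its gene (12417 genes).

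Means of the 6 groups were fitted with limma 3.58.1 in R 4.3.3 over all 18 arrays (12 residual degrees of freedom), without a block for the replicate number, and p-values, two-sided, were adjusted over all genes by Benjamini-Hochberg. The scripts were tested on simulated data. The receptors and gene lists were chosen with earlier results of these data known. Named are all receptors, up to 4 called genes per list with the largest difference with each stimulus, and the 3 genes most correlated with each receptor. Alternatives were other background corrections, normalizations, filters and probe summaries, blocks for slide or replicate number, a trended prior, the study's thresholds (unadjusted p under 0.05 and fold of at least 1.4), each array left out, and 2 sets of arrays left out that were chosen after the values were seen. The number of arrays limits the precision. Promoter windows came from RefSeq (GRCm38.p6); the array files name no build.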

Additional observations from a re-analysis of the deposited data

How the results depend on the processing

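The counts of receptors called (of 9) that left the range within 1.5 times of the reported value were few. With the slide as a fixed block, LPS against unstimulated gave 3 calls in WT and 3 in Nur77-KO BMM, against 6 and 5. LPS against IL-4 in WT gave 4 with median normalization, against 7. At the study's thresholds, IL-4 against unstimulated in WT gave 5, against 3, and the difference of LPS responses gave 1 (Clec4e), against 0. Without the 4 arrays that stood apart, the counts were 8 for LPS in Nur77-KO BMM and 5 for IL-4 in WT, and without the 2 arrays low in Eif2s3y the latter was 5. With each array left out in turn, the counts ranged from 4 to 6 and from 3 to 7 for LPS in WT and Nur77-KO BMM, from 3 to 4 and from 2 to 3 for IL-4, from 6 to 7 and from 5 to 7 for LPS against IL-4, and stayed at 0 for both differences of responses. The 3 came without unstimulated Nur77-KO replicate 1 or 2 or Nur77-KO LPS replicate 2 or 3. Same-numbered arrays of different groups correlated at a mean r of 0.05 (-0.25 to 0.45, 45 pairs) after group means were removed. Others correlated at -0.02 (90 pairs), and 11 of 18 arrays were closest to an array of their own number. The labels do not say that the numbers pair arrays, and they were not taken to do so. These values do not show that pairing was absent. The replicate block moved no count of receptors by over 1.5 times and gave 6 and 5 calls for LPS in WT and Nur77-KO BMM. No called difference changed sign under any alternative run. Among the differences of level between the genotypes, those of Clec4d, Clec4n, Clec5a, Clec7a and Clec12a with IL-4, of Clec4e, Clec7a and Clec12a with LPS and of Clec4d, Clec5a and Clec7a without stimulation did so under some. Calls held in all 32 alternatives for Clec4e, Clec7a and Clec4a1 with LPS and for Clec4d with IL-4, in both genotypes. No slide holds LPS and unstimulated arrays of 1 genotype, so within-slide LPS differences could not be computed.
Over all genes, median normalization lowered the counts from 4944 to 2755 for LPS in WT, from 839 to 126 and from 689 to 169 for IL-4 in WT and Nur77-KO BMM, and from 4773 to 2429 and from 4566 to 2576 for LPS against IL-4. It moved the median of all genes from -0.08 to -0.34 for LPS in Nur77-KO BMM and the share of higher calls there from 37.3% to 19.0%, and for IL-4 from 54.5% to 68.3% in WT and from 56.3% to 45.6% in Nur77-KO BMM. Over all alternatives the counts for IL-4 ranged from 126 to 2012 in WT and from 169 to 1535 in Nur77-KO BMM. Those for the difference of responses ranged from 0 to 530 with LPS (2 reported) and from 0 to 236 with IL-4 (1).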
